A study of Mus musculus with 16 samples.

Results

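The genes of cholesterol and fatty acid synthesis were followed across 8 mouse mammary fibroblast lines. The list holds 32 genes of the mevalonate pathway, the later sterol steps, their regulators, and the synthesis, elongation and desaturation of fatty acids. They were found by gene symbol among 25697 probes of an Illumina bead array. Of the 32, 29 had a probe, 26 were tested because they gave a signal above the negative controls (detection p under 0.01) on at least 2 of 16 arrays, and 18 of these did so on all 16. Mvk, Fdft1 and Acat2 had no probe by this name, and Idi1, Tm7sf2 and Fasn were detected on 0 arrays and not tested. The tested members stand against 7454 tested genes in all.

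All lines came from FVB/N mice and carry the E6 gene of human papillomavirus, which immortalized them; none was treated. NF2 and NF3 derive from normal mammary gland. HpAF1 derives from a hyperplasia, AdAF1 from an adenoma, and the carcinoma lines CAF1 to CAF4 from carcinomas, all of MMTV-PyMT mice, in which a mammary tumour virus promoter drives the polyoma middle T oncogene. Every line was grown for 72 h on a soft gel of Matrigel and collagen I in medium with 10% serum, and each line has 2 arrays, labelled replicate 1 and replicate 2. Hyperplasia and adenoma are 1 line each, so that stage and line cannot be told apart there. The labels do not say whether the replicates of a line were separate cultures, nor which arrays shared a day or a chip, so p-values between replicates measure only the spread between these arrays, which may be technical. Precision is limited by how few arrays there are.

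Between 7445 and 9823 probes were detected per array, and the replicates of a line correlated between 0.936 (NF3) and 0.994 (CAF1) over all tested probes. Fibroblast markers (Col1a1, Pdgfra, Thy1 and others) were present, with 7 of 9 genes detected on every array. Of 8 mammary epithelial genes, 0 were detected on any array, Krt8, Krt18 and Cdh1 among them. Of the leukocyte genes 1 of 5 was detected on some array (Lyz2), of the endothelial genes 1 of 4 (Tek) and of the adipocyte genes 2 of 7 (Pparg and Adipoq), while Ptprc, Pecam1, Plin1 and Fabp4 were detected on 0.

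Cells make cholesterol from acetyl-CoA through mevalonate, farnesyl diphosphate, squalene and lanosterol. When sterol is scarce in the endoplasmic reticulum, Scap escorts the SREBP transcription factors (Srebf1, Srebf2) to the Golgi, where they are cut and released to the nucleus; when sterol is plentiful, Insig1 holds the complex back. SREBP2 acts mainly on sterol genes and SREBP1c on fatty acid genes. Many target promoters hold a sterol response element beside a CCAAT box, the site of NF-Y. Fibroblasts in culture take sterol from serum lipoproteins and make the rest by this pathway.

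Promoter sequences from RefSeq (GRCm38.p6) matched 25 of the 32 members, all but Fdps, Fdft1, Sqle, Stard4, Scd1, Scd2 and Fads1. The 250 bases before the start of transcription are shown for 5 genes on which the results below turn: Hmgcs1, which was lowest in HpAF1, Mvd and Hsd17b7, whose means differed between the replicate numbers, Insig1, whose line mean was highest in CAF3, and Mid1ip1, whose mean was higher in every lesion line than in the normal lines. Each is written 5′ to 3′ on the strand of its gene, and capitals mark TCACNCCAC, a motif of the sterol response element type, and the CCAAT box (CCAAT), each on either strand.
Hmgcs1, chr13:119690101-119690350, plus strand: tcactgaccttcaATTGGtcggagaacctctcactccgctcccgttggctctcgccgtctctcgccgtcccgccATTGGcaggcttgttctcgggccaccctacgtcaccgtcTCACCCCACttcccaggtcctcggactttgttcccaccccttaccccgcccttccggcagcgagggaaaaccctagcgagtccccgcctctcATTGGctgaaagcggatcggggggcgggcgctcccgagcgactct
Mvd, chr8:122443423-122443672, minus strand: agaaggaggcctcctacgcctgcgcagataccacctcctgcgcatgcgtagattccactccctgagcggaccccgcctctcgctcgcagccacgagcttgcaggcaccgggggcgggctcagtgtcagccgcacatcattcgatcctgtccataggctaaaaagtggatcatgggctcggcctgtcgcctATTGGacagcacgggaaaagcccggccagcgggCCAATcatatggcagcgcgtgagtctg
Hsd17b7, chr1:169969206-169969455, minus strand: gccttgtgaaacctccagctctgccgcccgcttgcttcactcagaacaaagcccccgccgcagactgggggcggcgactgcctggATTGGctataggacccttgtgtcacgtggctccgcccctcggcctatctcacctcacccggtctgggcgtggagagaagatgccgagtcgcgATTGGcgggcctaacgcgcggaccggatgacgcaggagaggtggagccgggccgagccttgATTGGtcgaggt
Insig1, chr5:28071162-28071411, plus strand: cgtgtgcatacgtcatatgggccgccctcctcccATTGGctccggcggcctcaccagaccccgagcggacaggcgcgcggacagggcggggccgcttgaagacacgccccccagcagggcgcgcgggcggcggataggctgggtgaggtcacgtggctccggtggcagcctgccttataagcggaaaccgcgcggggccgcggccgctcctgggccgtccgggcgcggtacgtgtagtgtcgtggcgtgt
Mid1ip1, chrX:10717115-10717364, plus strand: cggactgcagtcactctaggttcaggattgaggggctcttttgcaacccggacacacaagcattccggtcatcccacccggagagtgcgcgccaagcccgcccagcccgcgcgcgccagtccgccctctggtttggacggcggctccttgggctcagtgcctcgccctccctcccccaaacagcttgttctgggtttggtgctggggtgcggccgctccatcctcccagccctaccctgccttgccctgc
Hmgcs1 had 1 match to TCACNCCAC, whose first base lies 137 bases before the start, and 3 CCAAT boxes. Mvd had 2 CCAAT boxes, Hsd17b7 had 3 and Insig1 had 1, and Mid1ip1 had 0 matches to either motif. A match is a match of letters only.

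A set of 4 short motifs was searched on both strands of this window, each separately, also where matches overlap; a gene with several starts counted if any start held the motif. CCAAT was found in 18 of 25 members (72.0%) and in 37.5% of all 27025 genes with a promoter sequence. These genes include many that were not tested here, so the shares do not set the members against the tested genes alone. TCACNCCAC was found in 1 member (4.0%), Hmgcs1, and in 1.22% of all genes. CACGTG, the E-box, was found in 5 members (20.0%), namely Dhcr7, Hsd17b7, Insig1, Sc5d and Scap, and in 6.86% of all genes. GGGCGG, the GC box, was found in 21 members (84.0%) and in 35.4% of all genes.

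Among the 8 lines, 3 of the tested synthesis genes differed by more than the spread between the replicates of a line, a spread that includes the difference between replicate numbers (a median over members of 0.64 on the log2 scale) given further on. With 1 mean per line and replicates as the spread, 3 of 26 members passed an adjusted p of 0.05 in the moderated F-test of limma, against 25.9% of all genes tested. These were Srebf1 (adjusted p = 0.0152), Mid1ip1 (adjusted p = 0.0281) and Fads2 (adjusted p = 0.0492). Srebf1 was detected on only 2 of 16 arrays, 1 of NF2 and 1 of CAF2, so its call rests mostly on background values. Both of these lines were among those where its level was highest. With detection required on at least 8 arrays, Srebf1 was not tested. With each of the 16 arrays left out in turn, Srebf1 passed in all 16 fits. Mid1ip1 lost its call in 6, without replicate 1 of NF2, replicate 2 of AdAF1 or either array of HpAF1 or CAF1. Fads2 lost its call in 12, and passed only without either array of NF3, replicate 1 of AdAF1 or replicate 2 of CAF2. Without either array of NF3, Ebp and Fads1 passed in addition. The share of all genes that passed was not counted for the fits with an array left out. The median F, the variance between lines over that within lines, was 1.20 for the members and 2.43 for all genes. F was under 1 in 11 members (42.3%), against 14.8% of all genes. In the RNA of a whole culture, fewer cells that express a gene and less RNA per cell cannot be told apart.

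All levels below are normalized log2 intensities, which can be compared between arrays but not between genes. Hmgcs1 joins acetyl-CoA to acetoacetyl-CoA, the step before mevalonate. In replicate 2, Hmgcs1 stood at 13.20 (NF2), 13.45 (NF3), 11.61 (HpAF1), 12.58 (AdAF1), 12.49 (CAF1), 13.14 (CAF2), 12.77 (CAF3) and 12.85 (CAF4). In replicate 1, Hmgcs1 stood at 12.40 (NF2), 12.35 (NF3), 11.36 (HpAF1), 11.81 (AdAF1), 12.30 (CAF1), 12.13 (CAF2), 11.83 (CAF3) and 12.09 (CAF4). Both arrays of HpAF1 lay below the other 14 arrays, and in each of the 8 lines replicate 2 was above replicate 1. Its line means spanned 1.42 on the log2 scale, with an adjusted p of 0.318 among the lines. Pmvk, the kinase that adds the second phosphate to mevalonate, was detected on 7 arrays. In replicate 2, Pmvk stood at 6.00 (NF2), 6.42 (NF3), 5.55 (HpAF1), 5.89 (AdAF1), 6.66 (CAF1), 7.05 (CAF2), 7.08 (CAF3) and 6.44 (CAF4). In replicate 1, Pmvk stood at 6.31 (NF2), 5.57 (NF3), 4.98 (HpAF1), 5.61 (AdAF1), 6.87 (CAF1), 5.30 (CAF2), 6.24 (CAF3) and 4.92 (CAF4). HpAF1 and CAF4 held its lowest values in replicate 1, and CAF1 and CAF3 were among the highest in both. Mvd, which makes isopentenyl diphosphate, and Fdps, which makes farnesyl diphosphate, were detected on all 16 arrays, with line means of 8.47 (CAF4) to 9.58 (NF3) and 11.35 (HpAF1) to 12.36 (CAF1).

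Of the steps after squalene, Sqle, the squalene epoxidase and a point of control of the pathway, had its lowest line mean in HpAF1 and its highest in CAF3. In replicate 2, Sqle stood at 11.94 (NF2), 12.25 (NF3), 10.87 (HpAF1), 12.27 (AdAF1), 12.01 (CAF1), 12.35 (CAF2), 12.36 (CAF3) and 12.20 (CAF4). In replicate 1, Sqle stood at 11.29 (NF2), 10.56 (NF3), 10.51 (HpAF1), 11.11 (AdAF1), 11.76 (CAF1), 11.43 (CAF2), 11.62 (CAF3) and 11.26 (CAF4). The lines overlapped: replicate 1 of NF3, at 10.56, lay next to replicate 1 of HpAF1, while replicate 2 of NF3 was among the highest. Nsdhl, a dehydrogenase that helps to remove the methyl groups of lanosterol, was lower on both arrays of HpAF1 than on the same-numbered array of any other line. In replicate 2, Nsdhl stood at 9.70 (NF2), 9.93 (NF3), 8.31 (HpAF1), 9.21 (AdAF1), 9.12 (CAF1), 9.90 (CAF2), 9.90 (CAF3) and 9.85 (CAF4). In replicate 1, Nsdhl stood at 9.27 (NF2), 8.54 (NF3), 7.88 (HpAF1), 8.15 (AdAF1), 9.01 (CAF1), 8.79 (CAF2), 9.37 (CAF3) and 9.37 (CAF4). Ebp, the sterol isomerase, had 9.57 as its line mean in CAF4 and 8.45 in HpAF1. In replicate 2, Ebp stood at 9.00 (NF2), 9.59 (NF3), 8.50 (HpAF1), 9.05 (AdAF1), 8.52 (CAF1), 9.33 (CAF2), 9.38 (CAF3) and 9.64 (CAF4). In replicate 1, Ebp stood at 9.38 (NF2), 8.68 (NF3), 8.40 (HpAF1), 8.23 (AdAF1), 8.67 (CAF1), 8.89 (CAF2), 9.18 (CAF3) and 9.50 (CAF4). In CAF4 both Ebp values were close, while NF3 and AdAF1 spread by over 0.8 between replicates. The remaining steps did not pass either: Lss (lanosterol synthase), Cyp51 and Msmo1 (demethylation), Hsd17b7 (a ketone reductase of the pathway), Sc5d (a desaturase) and Dhcr7 (the final reductase) had F between 0.11 and 0.62. Their line means spanned from 0.36 (Sc5d) to 1.10 (Dhcr7).

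Among the regulators, Srebf1 was dim. Its probe was detected on 2 of 16 arrays, 1 of NF2 and 1 of CAF2, and a second Srebf1 probe on 0. In replicate 2, Srebf1 stood at 6.33 (NF2), 6.41 (NF3), 4.94 (HpAF1), 5.35 (AdAF1), 5.87 (CAF1), 6.19 (CAF2), 5.71 (CAF3) and 5.34 (CAF4). In replicate 1, Srebf1 stood at 6.63 (NF2), 6.22 (NF3), 5.45 (HpAF1), 5.52 (AdAF1), 5.35 (CAF1), 6.39 (CAF2), 5.55 (CAF3) and 5.84 (CAF4). NF2, NF3 and CAF2 were above 6 on every array, and the other 5 lines were below 6 on every array. Srebf2, the sterol arm's factor, was detected everywhere and varied little. In replicate 2, Srebf2 stood at 8.33 (NF2), 8.56 (NF3), 8.08 (HpAF1), 8.70 (AdAF1), 8.32 (CAF1), 8.52 (CAF2), 8.61 (CAF3) and 8.34 (CAF4). In replicate 1, Srebf2 stood at 7.84 (NF2), 8.27 (NF3), 7.96 (HpAF1), 8.32 (AdAF1), 8.26 (CAF1), 7.48 (CAF2), 8.21 (CAF3) and 8.19 (CAF4). All 16 values lay between 7.48 and 8.70, and the lines overlapped. Scap, the escort, was detected on 7 arrays. In replicate 2, Scap stood at 6.04 (NF2), 6.13 (NF3), 6.25 (HpAF1), 5.78 (AdAF1), 6.54 (CAF1), 6.30 (CAF2), 6.57 (CAF3) and 5.81 (CAF4). In replicate 1, Scap stood at 6.45 (NF2), 5.99 (NF3), 6.35 (HpAF1), 6.08 (AdAF1), 6.25 (CAF1), 5.54 (CAF2), 6.45 (CAF3) and 6.07 (CAF4). CAF3 and CAF1 had its highest line means. Insig1, the sterol-dependent brake and itself an SREBP target, is the regulator with the widest range. In replicate 2, Insig1 stood at 8.12 (NF2), 9.39 (NF3), 8.47 (HpAF1), 8.80 (AdAF1), 8.45 (CAF1), 8.39 (CAF2), 9.50 (CAF3) and 8.46 (CAF4). In replicate 1, Insig1 stood at 8.12 (NF2), 7.57 (NF3), 8.18 (HpAF1), 7.57 (AdAF1), 8.48 (CAF1), 7.62 (CAF2), 9.11 (CAF3) and 8.15 (CAF4). CAF3 was highest in both replicates, but NF3, at 9.39, came close to it in replicate 2 (adjusted p = 0.469 among the lines).

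Of the fatty acid genes, Acly, which makes cytosolic acetyl-CoA from citrate, had its lowest line mean in HpAF1. In replicate 2, Acly stood at 13.09 (NF2), 13.19 (NF3), 11.82 (HpAF1), 12.21 (AdAF1), 12.39 (CAF1), 12.61 (CAF2), 12.40 (CAF3) and 12.12 (CAF4). In replicate 1, Acly stood at 12.15 (NF2), 12.31 (NF3), 11.82 (HpAF1), 12.00 (AdAF1), 12.25 (CAF1), 12.18 (CAF2), 11.95 (CAF3) and 11.96 (CAF4). In replicate 2 the normal lines were the highest, and in replicate 1 all 8 lines lay between 11.82 and 12.31. Acaca, the acetyl-CoA carboxylase that makes malonyl-CoA, had its highest line mean in CAF4 and its lowest in HpAF1. In replicate 2, Acaca stood at 9.07 (NF2), 9.21 (NF3), 8.08 (HpAF1), 8.41 (AdAF1), 9.08 (CAF1), 8.74 (CAF2), 8.86 (CAF3) and 9.23 (CAF4). In replicate 1, Acaca stood at 8.59 (NF2), 8.62 (NF3), 8.29 (HpAF1), 8.34 (AdAF1), 8.83 (CAF1), 8.39 (CAF2), 8.44 (CAF3) and 8.84 (CAF4). HpAF1 and AdAF1 were the lowest lines in both replicates, and CAF4 was the highest. Fasn, the synthase itself, was not above background on any array. In replicate 2, Fasn stood at 5.11 (NF2), 4.99 (NF3), 4.98 (HpAF1), 4.85 (AdAF1), 5.06 (CAF1), 4.98 (CAF2), 4.76 (CAF3) and 4.90 (CAF4). In replicate 1, Fasn stood at 5.07 (NF2), 4.96 (NF3), 4.89 (HpAF1), 5.12 (AdAF1), 5.20 (CAF1), 4.87 (CAF2), 4.93 (CAF3) and 4.73 (CAF4). No line separated from the others at this background level.

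Mid1ip1, a small protein that promotes the assembly of acetyl-CoA carboxylase into its active polymer, had its lowest line means in the normal lines. In replicate 2, Mid1ip1 stood at 8.76 (NF2), 8.73 (NF3), 10.11 (HpAF1), 10.13 (AdAF1), 9.05 (CAF1), 9.42 (CAF2), 9.87 (CAF3) and 9.49 (CAF4). In replicate 1, Mid1ip1 stood at 8.45 (NF2), 8.48 (NF3), 10.09 (HpAF1), 9.56 (AdAF1), 9.08 (CAF1), 8.78 (CAF2), 8.94 (CAF3) and 9.10 (CAF4). All 12 arrays of the lesion lines lay above all 4 arrays of the normal lines. The closest were replicate 1 of CAF2 at 8.78 and replicate 2 of NF2 at 8.76. How many of all genes separate in this way was not counted. Against the normal lines, Mid1ip1 passed in HpAF1 and AdAF1 and in none of CAF1 to CAF4. The line means were 8.61 (NF2), 8.61 (NF3), 10.10 (HpAF1), 9.85 (AdAF1), 9.07 (CAF1), 9.10 (CAF2), 9.41 (CAF3) and 9.30 (CAF4). The normal lines had the same mean to 2 decimals.

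Of the desaturases, Fads2 passed among the lines, while Fads1 (adjusted p = 0.228), Scd1 (0.475) and Scd2 (0.330) did not. Fads1 and Fads2 place double bonds in polyunsaturated fatty acids, and Scd1 and Scd2 make monounsaturated ones. In replicate 2, Fads2 stood at 6.14 (NF2), 6.79 (NF3), 6.41 (HpAF1), 7.83 (AdAF1), 7.57 (CAF1), 6.54 (CAF2), 7.07 (CAF3) and 6.95 (CAF4). In replicate 1, Fads2 stood at 6.58 (NF2), 6.22 (NF3), 6.39 (HpAF1), 6.97 (AdAF1), 7.56 (CAF1), 5.41 (CAF2), 7.63 (CAF3) and 6.48 (CAF4). By line mean CAF1, AdAF1 and CAF3 were the highest and CAF2 the lowest, and the probe was detected on 10 arrays. In replicate 2, Fads1 stood at 12.19 (NF2), 12.83 (NF3), 12.00 (HpAF1), 12.78 (AdAF1), 12.83 (CAF1), 12.16 (CAF2), 12.75 (CAF3) and 12.50 (CAF4). In replicate 1, Fads1 stood at 12.45 (NF2), 11.91 (NF3), 12.00 (HpAF1), 12.39 (AdAF1), 12.65 (CAF1), 11.80 (CAF2), 12.55 (CAF3) and 12.32 (CAF4). CAF1 had the highest Fads1 mean and CAF2 the lowest, as for Fads2. In replicate 2, Scd1 stood at 9.39 (NF2), 9.87 (NF3), 8.82 (HpAF1), 8.47 (AdAF1), 9.32 (CAF1), 9.61 (CAF2), 9.40 (CAF3) and 9.15 (CAF4). In replicate 1, Scd1 stood at 9.05 (NF2), 8.42 (NF3), 8.75 (HpAF1), 8.46 (AdAF1), 9.12 (CAF1), 9.64 (CAF2), 7.91 (CAF3) and 7.69 (CAF4). CAF2 was high in both replicates, while CAF3, CAF4 and NF3 differed by over 1.4 between theirs. In replicate 2, Scd2 stood at 7.69 (NF2), 8.54 (NF3), 7.28 (HpAF1), 8.01 (AdAF1), 7.36 (CAF1), 7.67 (CAF2), 8.42 (CAF3) and 7.41 (CAF4). In replicate 1, Scd2 stood at 7.61 (NF2), 7.61 (NF3), 6.84 (HpAF1), 7.38 (AdAF1), 7.47 (CAF1), 7.03 (CAF2), 7.32 (CAF3) and 6.39 (CAF4). Scd2 was highest in NF3 and lowest in CAF4 by line mean. Elovl6, which elongates palmitate, had line means of 8.51 (HpAF1) to 9.33 (CAF3) and an adjusted p of 0.862.

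**Figure D1:**
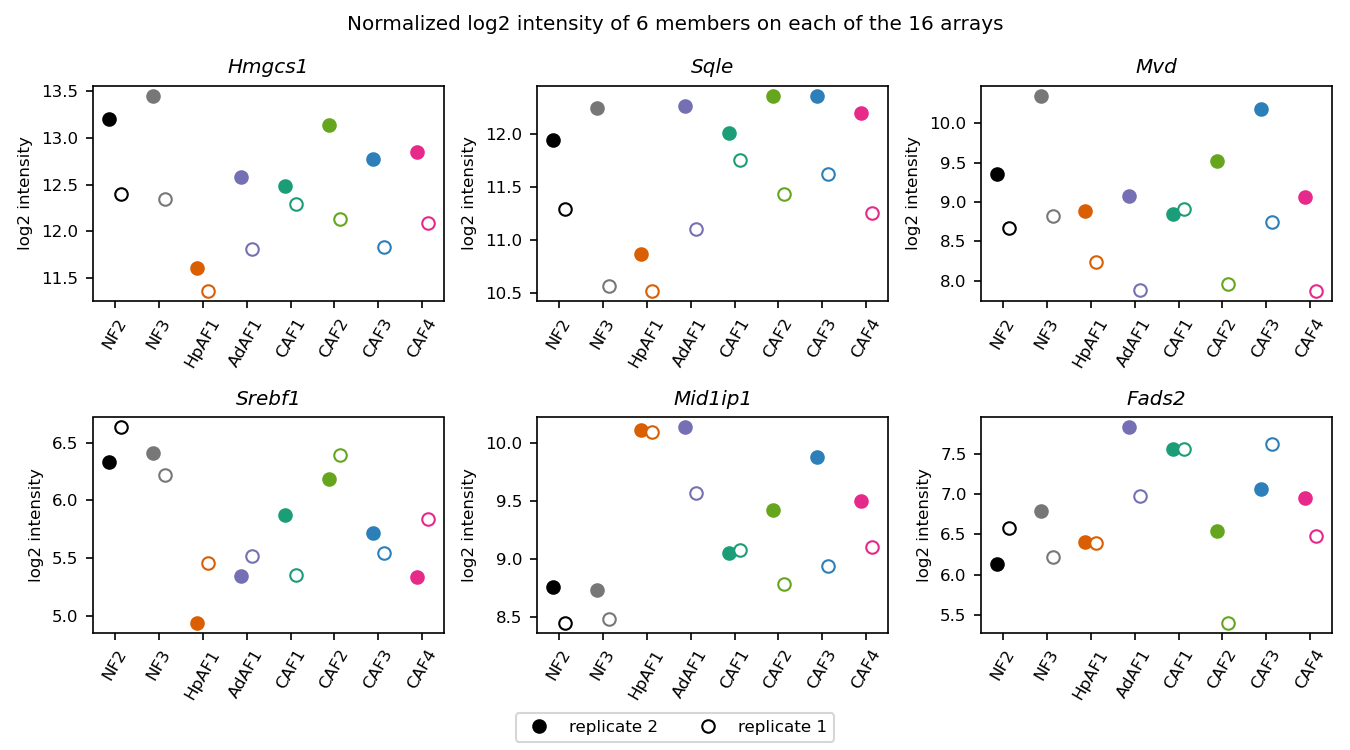
Normalized log2 intensity (y axis) of 6 members on each array, by line (x axis), with filled points for replicate 2 and open points for replicate 1. Hmgcs1 is lowest in HpAF1, Mid1ip1 is lowest in the normal lines NF2 and NF3, and for Hmgcs1 and Sqle the filled point is above the open one in all 8 lines.

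Nearly all members were higher in the arrays labelled replicate 2 than in those labelled replicate 1. This comparison was added after the values were seen, and the labels do not say what the numbers stand for. In replicate 2, 25 of 26 members had a higher mean than in replicate 1, with a median log2 difference of 0.64, against -0.0009 over all genes. With the line in the fit, the limma test found 0 members with an adjusted p under 0.05 and called 0% of all genes; the lowest adjusted p of a member was 0.144. At an unadjusted p under 0.05 there were 21 members, all higher in replicate 2, against 7.81% of all genes that were higher. In the order of the moderated t over 7454 genes, 13 members were among the first 100 and 21 among the first 500, and Hmgcs1 was number 1.

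The 7 members with the largest differences were sterol steps. All 13 tested steps from Hmgcs1 to Dhcr7 were higher in replicate 2, with a median of 0.81. Dhcr7 averaged 6.78 in replicate 2 and 5.76 in replicate 1, a difference of 1.03 (SE 0.23), and was higher in 8 of 8 lines. It was detected on 7 of 8 arrays of replicate 2 and 4 of 8 of replicate 1, so its difference rests in part on background values. Mvd averaged 9.41 in replicate 2 and 8.39 in replicate 1, a difference of 1.02 (SE 0.17, higher in 7 of 8 lines). Hmgcs1 averaged 12.76 in replicate 2 and 12.03 in replicate 1, a difference of 0.73 (SE 0.12, limma unadjusted p = 8.33e-05, adjusted p = 0.144, higher in 8 of 8 lines). The differences of Lss (0.96), Hsd17b7 (0.94), Msmo1 (0.89), Sqle (0.84), Fdps (0.81), Cyp51 (0.75), Nsdhl (0.69), Pmvk (0.66) and Sc5d (0.51) stood with them. Pmvk was detected on 4 of 8 arrays of replicate 2 and 3 of 8 of replicate 1, and Sc5d on 4 and 2. Ebp, at 0.26, was the smallest of the sterol steps.

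Stard4, which carries cholesterol between membranes, differed by 0.78 (SE 0.18). Of the regulators, Insig1 differed by 0.60 (SE 0.20) and Srebf2 by 0.36 (SE 0.11), Scap by 0.03 (SE 0.13), and Srebf1, detected on 1 of 8 arrays of each replicate number, was the member with a negative sign (5.77 in replicate 2 and 5.87 in replicate 1). In the fatty acid arm, Elovl6 differed by 0.68, Scd1 by 0.62, Scd2 by 0.59, Acly by 0.40, Mid1ip1 by 0.39 and Acaca by 0.29. Fads2, at 0.26, and Fads1, at 0.24, differed least. Where a gene had several tested probes, the others ran the same way: 0.74 for the second Sqle probe, 0.70 to 0.80 for the other 3 of Nsdhl, and 0.71 and 0.82 for the others of Insig1.

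The size varied by line. The median difference over members was 1.12 in NF3, 1.02 in CAF2, 0.72 in CAF3, 0.60 in AdAF1, 0.56 in CAF4, 0.43 in NF2, 0.27 in HpAF1 and 0.15 in CAF1. In NF3 all 26 members were higher in replicate 2, and in CAF1, the line with the most similar arrays, 19 were. Over the 8 lines, 10 members were higher in replicate 2 in 8 of 8, against 1.46% of all genes, and 19 in at least 7 of 8, against 7.14%. Without NF3 the median was 0.57, with 25 of 26 members higher; without CAF1 it was 0.71, and 1 member, Mvd, passed (adjusted p = 0.0450). The summed linear intensity of the 8 proliferation genes ranged from 3380 to 6410 in replicate 2 and from 1890 to 6910 in replicate 1. All 7 tested proliferation genes had a higher mean in replicate 2, with a median log2 difference of 0.23, against -0.0009 over all genes. The sum of the 7 adipocyte genes ranged from 274 to 1800 in replicate 2 and from 237 to 2150 in replicate 1. Of the 2 tested adipocyte genes 1 was higher and 1 lower, with a median of 0.06. The part of these genes in the difference was not tested.

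**Figure D2:**
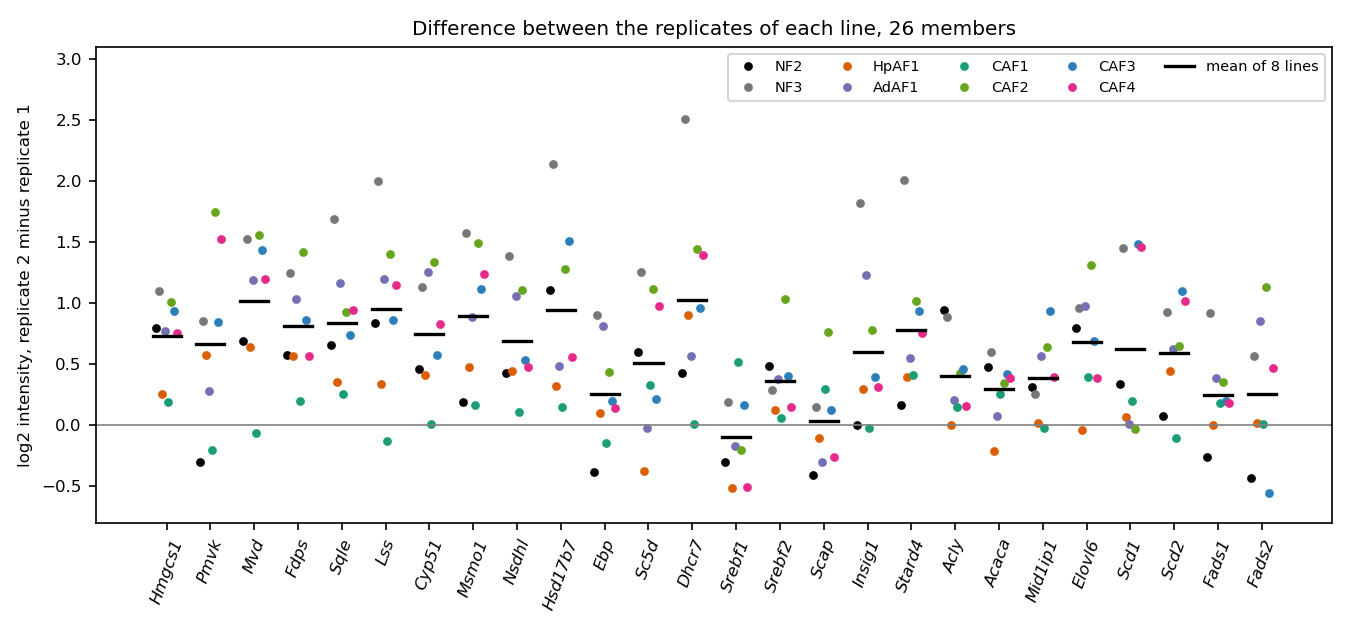
Difference in normalized log2 intensity between replicate 2 and replicate 1 (y axis) for each of the 26 tested members (x axis, by role), with 1 point per line and a bar at the mean of the 8 lines. The bar lies above 0 for 25 of 26 members and is highest for Dhcr7 at 1.03.

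HpAF1, the hyperplasia line, had the lowest line mean in 9 of the 13 tested sterol steps, against 22.3% of all genes; 1 of the 9, Pmvk, was detected on 0 of 2 HpAF1 arrays. Against the mean of NF2 and NF3, 22 of 26 members were below and 4 above, with a median log2 difference of -0.47, against -0.02 over all genes. In limma, 3 members passed, 1 higher and 2 lower, where 18.1% of all genes passed (9.02% higher and 9.06% lower); at an unadjusted p under 0.05 there were 7, against 32.1% of all genes. Hmgcs1 fell to 11.49 in HpAF1, against 12.85 in the normal lines, a difference of -1.37 (SE 0.42, adjusted p = 0.0436). Mid1ip1 rose to 10.10 in HpAF1, against 8.61 in the normal lines, a difference of 1.50 (SE 0.28, adjusted p = 0.00395) or 2.82-fold. Srebf1 passed as lower (5.20 in HpAF1 and 6.40 in the normal lines, adjusted p = 0.00364), but it was detected on 0 of 2 HpAF1 arrays and 1 of 4 normal arrays, so that no fold is given.

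The calls in HpAF1 rest on few arrays. Without replicate 2 of HpAF1, 0 members passed. More members passed without replicate 1 of NF3 (Acaca, Acly, Ebp and Nsdhl in addition) or without replicate 1 of NF2. The share of all genes that passed in these fits was not counted. Hmgcs1 lost its call without replicate 2 of NF2 (adjusted p = 0.0997), replicate 2 of NF3 (0.0933), replicate 1 or 2 of HpAF1 (0.246 and 0.168) or either array of CAF1 (0.0638 each). It also lost it without a detection filter (0.0992) and with only HpAF1, NF2 and NF3 in the fit (0.0942). The median of the members was -0.14 without replicate 2 of NF3 and -0.83 without its replicate 1.

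HpAF1 was also set against the normal lines within each replicate number. This does not remove the difference between replicate numbers, whose median over members was 1.12 in NF3, 0.43 in NF2 and 0.27 in HpAF1. Replicate numbers also did not pair the arrays by the rule used. Within both replicate numbers, 12 of 26 members lay below both normal lines, against 24.0% of all genes. They were Hmgcs1, Pmvk, Mvd, Fdps, Sqle, Nsdhl, Ebp, Dhcr7, Srebf1, Acly, Acaca and Scd2. Of these, Pmvk, Dhcr7 and Srebf1 were detected on 0 of 2 HpAF1 arrays, so their HpAF1 values are at background. On the normal arrays Pmvk and Srebf1 were detected on 1 of 4 and Dhcr7 on 3 of 4. Only Mid1ip1 of the 26 lay above both normal lines within both replicate numbers, against 23.7% of all genes. Hmgcs1 differed from the normal mean by -1.72 within replicate 2 and by -1.02 within replicate 1. Nsdhl differed by -1.50 within replicate 2 and by -1.03 within replicate 1, and Scd2 by -0.83 and -0.77. Acly was further below in replicate 2 (-1.32) than in replicate 1 (-0.41), and so was Sqle (-1.22 and -0.41). Hsd17b7 (-1.16 and 0.14) and Lss (-0.80 and 0.29) had opposite signs. The second Sqle probe (-1.07) and other Nsdhl probes (-1.12 and -1.24) ran the same way over both replicates. Of the Insig1 probes, the brightest differed by 0.02 and another by 0.03. The last tested probe of Nsdhl and that of Insig1 were detected on 0 of 2 HpAF1 arrays, so that no difference is given for them.

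**Figure D3:**
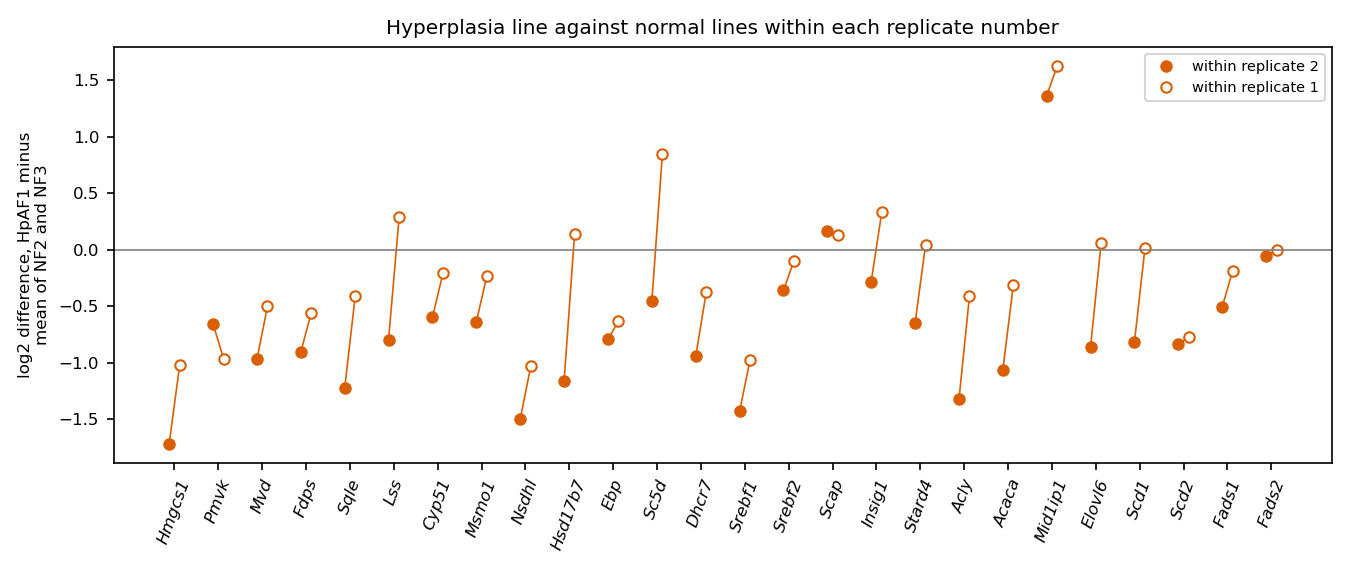
Log2 difference of HpAF1 from the mean of NF2 and NF3 (y axis) for the 26 tested members (x axis, by role), within replicate 2 (filled) and within replicate 1 (open). Hmgcs1 lies at -1.72 and -1.02 and Mid1ip1 at 1.37 and 1.63, while Hsd17b7 and Lss lie on different sides of 0.

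In AdAF1, the adenoma line, 2 members passed in limma, Mid1ip1 and Srebf1, where 4.02% of all genes passed. Mid1ip1 rose to 9.85 in AdAF1, against 8.61 in the normal lines, a difference of 1.24 (SE 0.28, adjusted p = 0.0284) or 2.36-fold. Srebf1 passed as lower (5.43 in AdAF1 and 6.40 in the normal lines, adjusted p = 0.0309). It was detected on 0 of 2 AdAF1 arrays and 1 of 4 normal arrays, so that no fold is given. Both calls were lost without either array of AdAF1 or without replicate 1 of NF2. Srebf1 alone passed without either array of HpAF1 or CAF1, and Mid1ip1 alone without replicate 2 of NF3. Of the 26 members, 20 were below the normal mean and 6 above, with a median of -0.20, which was 0.07 without replicate 2 of NF3 and 0.08 without replicate 1 of AdAF1. Within both replicate numbers, 7 members lay below both normal lines (16.1% of all genes did) and 3, Srebf2, Mid1ip1 and Fads2, above (15.5%). Fads2 differed by 0.97 (SE 0.34) and did not pass (adjusted p = 0.147).

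In the 4 carcinoma lines 0 members passed against the normal lines in limma, where the share of all genes that passed was 7.18% for CAF1, 6.02% for CAF2, 4.52% for CAF3 and 1.48% for CAF4. At an unadjusted p under 0.05 there were 2 members for CAF1 (23.0% of all genes), 0 for CAF2 (20.7%), 4 for CAF3 (20.6%) and 4 for CAF4 (12.4%). In CAF1 the smallest p were those of Srebf1 (5.61 in CAF1 and 6.40 in the normal lines, adjusted p = 0.0533), Fads2 (7.56 in CAF1 and 6.43 in the normal lines, adjusted p = 0.0681) and Ebp (8.60 in CAF1 and 9.16 in the normal lines, adjusted p = 0.250). In CAF2 they were Mid1ip1 (0.49, SE 0.28), Fads1 (-0.37, SE 0.24) and Dhcr7 (-0.90, SE 0.65, detected on 1 of 2 CAF2 arrays). In CAF3 they were Srebf1 (5.63 in CAF3 and 6.40 in the normal lines), Mid1ip1 (0.80, SE 0.28) and Fads2 (0.92, SE 0.34). In CAF4 they were Srebf1 (5.59 in CAF4 and 6.40 in the normal lines), Scd2 (-0.96, SE 0.38, detected on 1 of 2 CAF4 arrays) and Mid1ip1 (0.69, SE 0.28). None of these passed, and their adjusted p lay between 0.0533 and 0.493. In CAF1, 1 member passed without replicate 1 of NF3 or either array of CAF4 (Srebf1), or without either array of CAF2 (Fads2). In CAF3, 1 member, Insig1, passed without replicate 2 of NF3.

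CAF3 had the most members with a higher level, 18 of 26 above the normal mean with a median of 0.20, and CAF2 the fewest, 6 of 26 with a median of -0.10. CAF1 had 16 (median 0.09) and CAF4 had 11 (median -0.11). The sign of each of these medians rested on single arrays. Without replicate 2 of NF3 it was 0.19 for CAF2 and 0.22 for CAF4, and without replicate 1 of NF3 it was -0.24 for CAF1 and -0.10 for CAF3. Without the line's own replicate 1 it was 0.35 for CAF2 and 0.18 for CAF4, and without its own replicate 2 -0.01 for CAF1 and -0.05 for CAF3. Within both replicate numbers, CAF3 lay above both normal lines in 7 members, namely Sqle, Cyp51, Msmo1, Insig1, Mid1ip1, Elovl6 and Fads2, against 20.4% of all genes. Above both lay 3 members in CAF1 (19.5%), 2 in CAF2 (17.4%) and 3 in CAF4 (12.8%). Below both lay 4 members in CAF1 (19.9% of all genes), 5 in CAF2 (18.0%), 4 in CAF3 (18.9%) and 6 in CAF4 (14.2%). Srebf1 was among those of CAF1, CAF3 and CAF4, and was detected on 0 of 2 arrays of each. Hmgcs1 was below, and Mid1ip1 above, both normal lines within both replicate numbers in all 6 lesion lines. These comparisons share the same 4 normal arrays, and the share of all genes that do so in all 6 lines was not counted.

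**Figure D4:**
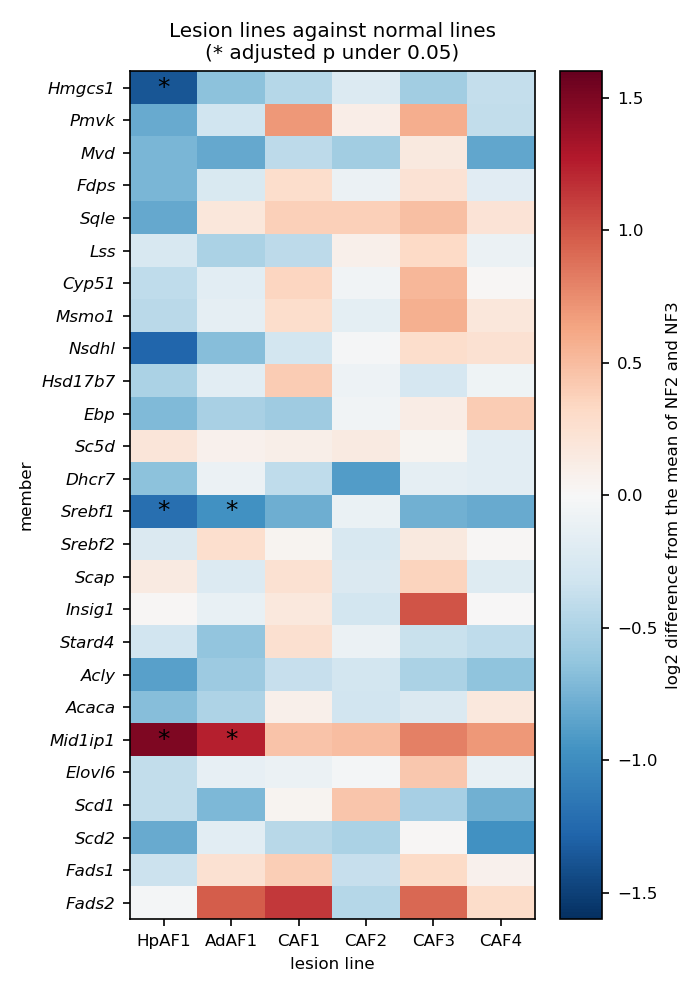
Log2 difference of each lesion line (x axis) from the mean of NF2 and NF3 for the 26 tested members (y axis, by role), with red for higher and blue for lower in the lesion line and a star where the adjusted p was under 0.05. The stars mark Hmgcs1, Srebf1 and Mid1ip1 in HpAF1 and Srebf1 and Mid1ip1 in AdAF1, and 22 of 26 members are lower in HpAF1.

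Among the 4 carcinoma lines themselves, 1 of 26 members differed, against 18.2% of all genes. This was Fads2 (adjusted p = 0.0426), with line means of 7.56 (CAF1), 5.97 (CAF2), 7.35 (CAF3) and 6.72 (CAF4). It was detected on 1 of 2 arrays of CAF2 and 1 of 2 of CAF4, so its call rests in part on background values. The call was lost without either array of CAF1, CAF3 or HpAF1, or without replicate 1 of CAF2 or of CAF4. The normal lines did not differ in any member that passed (0 of 26 in limma, against 0.148% of all genes, and 0 at an unadjusted p under 0.05, against 8.34%). The smallest p were those of Srebf2 (0.33, SE 0.31), Scd2 (0.42, SE 0.44) and Mvd (0.57, SE 0.69), as NF3 minus NF2.

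With lines as replicates, 0 members passed in limma at any stage against normal, where 0.322% of all genes passed in hyperplasia, 0% in adenoma and 0% in carcinoma. Hyperplasia and adenoma are 1 line mean each, so that their errors come from the spread of the normal and carcinoma lines and assume that the lone line varies like these. At an unadjusted p under 0.05 there were 8 members in hyperplasia (12.4% of all genes), 3 in adenoma (3.86%) and 3 in carcinoma (2.63%). In hyperplasia these were led by Mid1ip1 (1.50, SE 0.25, adjusted p = 0.0968), Hmgcs1 (-1.37, SE 0.25, adjusted p = 0.111) and Nsdhl (-1.27, SE 0.32, adjusted p = 0.214). In adenoma they were Mid1ip1 (1.24, SE 0.25), Srebf1 (5.43 in adenoma and 6.40 in normal) and Hmgcs1 (-0.66, SE 0.25), each with an adjusted p of 1. In carcinoma they were Mid1ip1 (0.61, SE 0.18), Acly (-0.45, SE 0.18) and Srebf1 (5.78 in carcinoma and 6.40 in normal), also with an adjusted p of 1; Srebf1 was detected on 1 of 8 carcinoma arrays and 1 of 4 normal arrays. Carcinoma had 13 members above and 13 below the normal mean, with a median of 0.01 that took either sign as single lines were left out (from -0.05 without CAF3 to 0.05 without CAF2).

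Genes next to the pathway were followed in the same way. Of 45 further genes of sterol processing and transport and of fatty acid supply, 26 were tested and 6 passed among the 8 lines, against the same 25.9% of all genes. Among the carcinoma lines 5 passed, against 18.2% of all genes. The 6 were Pparg, Elovl1, Dgat2, Nr1h3, Mbtps1 and Me1, and the 5 were Pparg, Elovl1, Dgat2, Me1 and Insig2. Pparg, a nuclear receptor of lipid storage, had line means of 9.90 (NF2), 9.65 (NF3), 7.48 (HpAF1), 7.95 (AdAF1), 8.93 (CAF1), 10.67 (CAF2), 9.24 (CAF3) and 9.99 (CAF4) (adjusted p = 0.00165). It was lowest in HpAF1 and AdAF1. Nr1h3, the oxysterol receptor LXR alpha, had line means of 7.09 (NF2), 7.73 (NF3), 6.98 (HpAF1), 5.23 (AdAF1), 5.43 (CAF1), 6.09 (CAF2), 5.97 (CAF3) and 6.88 (CAF4). It was detected on 9 arrays and highest in NF3.

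Elovl1, which elongates saturated fatty acids, had line means of 10.37 (NF2), 10.43 (NF3), 9.29 (HpAF1), 9.98 (AdAF1), 10.68 (CAF1), 10.18 (CAF2), 9.75 (CAF3) and 10.18 (CAF4). Dgat2, the last enzyme of triglyceride synthesis, had line means of 7.79 (NF2), 8.44 (NF3), 9.31 (HpAF1), 8.47 (AdAF1), 8.25 (CAF1), 7.78 (CAF2), 7.28 (CAF3) and 8.69 (CAF4). HpAF1 was lowest in Elovl1 and highest in Dgat2. Mbtps1, the site-1 protease that makes the first cut in SREBP, had line means of 8.94 (NF2), 9.25 (NF3), 9.35 (HpAF1), 9.26 (AdAF1), 8.45 (CAF1), 8.98 (CAF2), 9.16 (CAF3) and 8.73 (CAF4). Me1, the malic enzyme that supplies NADPH, had line means of 6.95 (NF2), 6.39 (NF3), 7.12 (HpAF1), 7.12 (AdAF1), 7.70 (CAF1), 6.94 (CAF2), 6.82 (CAF3) and 6.84 (CAF4). Against the normal lines, Dgat2 rose and Elovl1 and Pparg fell in HpAF1. In AdAF1 Pparg and Nr1h3 fell, and in CAF1 Me1 rose and Mbtps1 and Nr1h3 fell. Nr1h3 was detected on 0 of 2 arrays of AdAF1, 0 of 2 of CAF1 and 4 of 4 normal arrays. Its values in AdAF1 and CAF1 are therefore at background. In CAF2, CAF3 and CAF4, 0 of the 26 passed.

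In the comparison of replicate numbers, 21 of the 26 further genes had a higher mean in replicate 2, with a median of 0.15, and 0 passed. Tmem97, a sterol-regulated membrane protein, differed by 0.61 (SE 0.13) and Aacs, which activates acetoacetate, by 0.48 (SE 0.13). Abcg1, a sterol exporter, was detected on 2 of 8 arrays of replicate 2 and on 0 of 8 of replicate 1, so that no difference is given. These are the 3 with the smallest p and were named after their values were seen. The summed intensity of the adipocyte genes, Pparg among them, ranged from 237 to 274 in hyperplasia, from 290 to 392 in adenoma and from 474 to 2150 in carcinoma, against 552 to 1530 in normal lines, and that of the proliferation genes from 4840 to 5070 in hyperplasia, from 3850 to 4360 in adenoma and from 1890 to 6910 in carcinoma, against 3380 to 4820 in normal lines. Their part in the differences between lines was not tested.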

How the data were processed

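RNA of 8 fibroblast lines was measured on 16 Illumina arrays, 2 per line. The authors deposited a table that gives, per the file headers, an intensity for each probe on a linear scale without normalization, with a detection p-value that sets the probe against that array's negative controls; these p-values step by 0.00125. A second deposited table holds intensities that, by their values, were quantile normalized, and served as an alternative. The scanner software is not named in the labels or headers. The neqc function (limma 3.58.1, R 4.3.3, offset 16) gave log2 values after background correction and quantile normalization. Probes with a detection p under 0.01 on at least 2 arrays were tested (10453). A gene stands for its tested probe of highest mean.

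Models in limma (lmFit, eBayes) had 1 mean per line with replicates as the spread (8 residual degrees of freedom), 1 mean per stage over line means (4), or line and replicate number (7). The last was added after the values were seen. P-values were two-sided and adjusted by Benjamini-Hochberg over all tested probes, with a threshold of 0.05. Fitted values of dim probes are compressed, and no fold is given in the text where a group had no detected array. The fits were tested on simulated data.

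The members and lists were chosen with earlier results of these data known. By rule, all array values are given for the 12 members with the largest F and for Hmgcs1, Sqle, Insig1, Srebf1, Srebf2, Fasn, Scd1 and Scd2. Each comparison names the members that passed or, where none did, the 3 with the smallest p. Further genes are given by counts and the 6 with the largest F, marker genes by summed level. Alternatives covered normalization, filter, probe choice, prior, blocks and single arrays left out. Promoters were searched in the 250 bases before each RefSeq start.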

Additional observations from a re-analysis of the deposited data

Results flagged for a closer look

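Srebf1 in CAF2 stood apart from the other carcinoma lines. Its mean of 6.29 lay further from the nearest of them, CAF3 at 5.63, than a Dixon test allows for 4 lines, while CAF1 stood at 5.61 and CAF4 at 5.59. It was detected on 1 of 2 arrays of CAF2 and on 0 of 6 of the other carcinoma arrays. Of 26 members screened in this way 1 stood out, and chance marks about 1 group in 20.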

How the results depend on the processing

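The dim probes (Srebf1, Pmvk, Scap, Sc5d, Fads2, Dhcr7) and the 2 arrays per line limit these results, and no library depth applies to arrays. Of the counts recomputed under an alternative, 228 kept their side or size, 16 grew and 31 shrank. Counts that stayed at 0, as in many of the comparisons, and counts that changed little are among those kept. Of the values of named members 615 held, 10 gained and 26 lost a call, and 2 changed sign. A member that passed neither before nor after also counts as held. These totals therefore do not measure how stable the calls are. The count in AdAF1 (2) was 1 with the authors' normalized values, with quantile normalization without background correction, without a detection filter and with detection on at least 8 arrays, and 0 with only the compared lines in the fit. Among the 8 lines (3) it was 1 without a filter. Among the carcinoma lines (1) it was 0 without a filter and with only these lines in the fit. With single arrays left out, the counts ranged from 1 to 5 among the 8 lines, 0 to 1 among the carcinoma lines, 0 to 7 in HpAF1, 0 to 2 in AdAF1, 0 to 1 in CAF1, 0 to 1 in CAF3 and, with a line left out, 0 to 1 between replicate numbers. The difference of NF3 from NF2 ranged from -0.040 to 0.89 for Scd2 and from -0.19 to 1.33 for Mvd, and changed sign without replicate 2 of NF3. A fit over arrays that took the line as random gave 1 member in hyperplasia over lines. The cause of these changes was not tested, and the share of all genes that passed with an array left out was not counted. Replicate numbers did not pair the arrays by the rule used, since the deviations of same-numbered arrays correlated from -0.20 to 0.65 over 28 pairs of lines (median 0.08, over 0.1 in 12). With the replicate number as a block, the counts were 5 among the 8 lines (Hmgcs1 and Nsdhl added; 30.8% of all genes), 8 in HpAF1 (Sqle, Nsdhl, Acly, Acaca and Scd2 added; 21.1%), 1 in CAF3 (Mid1ip1; 5.47%) and, with the line taken as random as well, 2 in hyperplasia over lines. Among the 8 lines, 11 members then had an unadjusted p under 0.05, against 4 without the block.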
